A study of Mus musculus with 6 samples.

Results

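Nuclear receptors are transcription factors, most of which are switched by small lipophilic ligands such as steroids, thyroid hormone, retinoids, vitamin D, bile acids and fatty acids. A typical member binds DNA through a pair of zinc fingers, alone or as a dimer, often with a retinoid X receptor as partner, and exchanges corepressors for coactivators when ligand is bound. In the colon the family is known for receptors of vitamin D, bile acids, mineralocorticoids and xenobiotics, and for HNF4 receptors that maintain the intestinal epithelium. The genes described here are a list of 47 members of this superfamily, chosen by name. Of these, 43 had a probe set under their symbol in the platform annotation, out of 19505 genes in all. Nr1h2, Nr2e3, Ppard and Esrra are not analysed here. Where a gene had several probe sets, the probe set whose mean over the 6 arrays was highest was used.

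The values come from 6 Affymetrix arrays of samples labelled colon from C57BL/6J mice. The 3 control arrays are titled PBS and labelled as control mice. The 3 MBELN arrays are from mice given nanoparticles from mulberry bark by mouth in 100 µl daily for 7 days. The same treatment text is attached to all 6 samples, and the group is taken from the title and the treatment label. The labels name no separate animals, so a p-value here reflects the spread among 6 samples, part of which may be technical. That spread also holds the differences between arrays that carried genes of different tissues, given below. Values are log2 expression as deposited, and levels are compared between arrays for 1 gene at a time, since levels of different probe sets cannot be set against each other. Background was set for each array at the 95th percentile of its negative control probe sets, and a value under it is only an upper bound. These thresholds were 8.14, 10.11 and 8.89 for control 1 to 3 and 7.93, 9.34 and 8.47 for MBELN 1 to 3. The highest values in the table are 19.93.

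The arrays did not carry the genes of 1 tissue, so each is given by itself and called by its label. Whether each column of values belongs to the sample it is labelled with was not tested, and MBELN and control below mean the arrays with these labels. The 15 colonocyte and goblet cell markers had a median of 18.95 on control 1 and of 4.79 to 5.84 on the other arrays. Control 3 had 9 of 9 brain markers above background, MBELN 1 had 10 of 10 heart markers, MBELN 2 had 10 of 10 squamous skin and 8 of 10 skeletal muscle markers, and MBELN 3 had 10 of 10 liver markers. Control 2 was flat: 0 of its colon, brain, heart, skin, skeletal muscle or liver markers were above background, and 0.311% of all probe sets were, against 14.3% to 27.7% on the other arrays. In such bulk samples, fewer cells of a type and less RNA per cell cannot be told apart. The part of these marker genes in the values below was not tested, and the design cannot tell apart the treatment from the tissue genes each array carried.

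Of the 43 receptors, 27 (62.8%) were above background on at least 1 array, as were 44.4% of all genes. Control 1 and MBELN 3 had 15 each, control 3 and MBELN 1 had 11 each, MBELN 2 had 3 and control 2 had 0. The last 2 are the arrays with the highest thresholds. As a share of the family these counts were 34.9%, 34.9%, 25.6%, 25.6%, 6.98% and 0%, beside 26.8%, 23.7%, 21.3%, 28.6%, 14.2% and 0.287% of all genes on the same arrays. The mean number above background was 9.67 ± 6.11 (SD, n = 3) on MBELN arrays and 8.67 ± 7.77 (n = 3) on control arrays. The difference of 1 receptor was smaller than the spread within either group (exact permutation test over 20 assignments, 2-sided, p = 1; no p under 0.1 can be reached with 3 arrays a group). With control 2 left out it was -3.33, and with MBELN 3 left out -1.67.

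**Figure D1:**
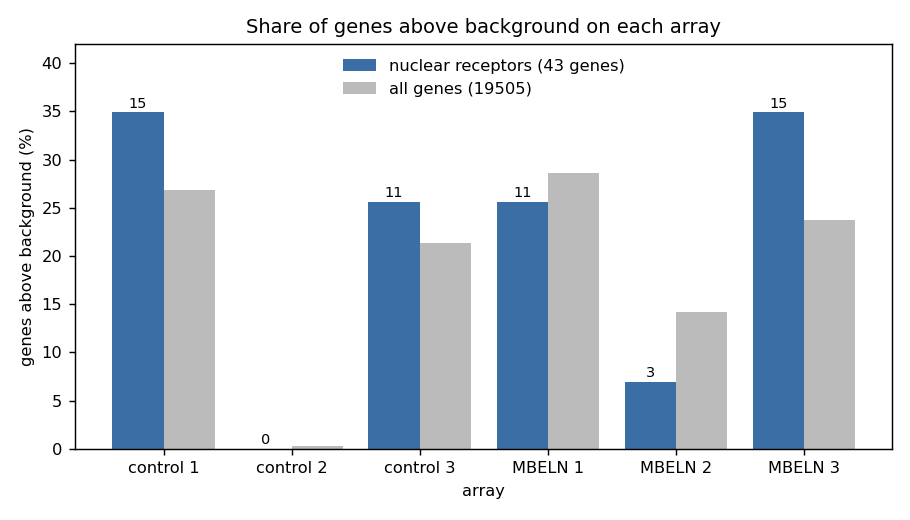
Percentage of genes above background on each of the 6 arrays, for the 43 nuclear receptors (blue, with the number of genes on top) and for all 19505 genes (grey). Control 1 and MBELN 3 each have 15 receptors above background and control 2 has 0.

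The 27 receptors above background somewhere showed 13 patterns over the arrays, 7 of them with 1 receptor each. The most frequent pattern was above background on control 1 and MBELN 3 alone, the arrays with colon and liver markers, which held for 8 receptors: Hnf4a, Nr1h4, Nr1i2, Nr5a2, Pparg, Rxra, Thrb and Nr3c1. These are 72.7% of the 11 receptors above background on exactly 2 arrays, beside 14.7% of the 1502 genes of that kind. Another 4, Nr4a1, Nr4a2, Rarb and Rorb, were above background on control 3 alone. Control 1 alone had Hnf4g and Vdr, MBELN 1 alone had Rara and Rxrg, and MBELN 3 alone had Nr1i3 and Ppara. Nr1d2 was above background on 5 arrays, and 0 receptors were on all 6, beside 19 of all genes. The highest array led the next by a median of 2.12 log2 units among the 27 receptors and of 1.31 among all genes above background somewhere. Some values lay close to the threshold. Nr3c2 was just inside, by 0.03 on MBELN 1 and by 0.04 on control 3, and Pparg on MBELN 1 (7.90 against 7.93) and Rara on control 1 (8.10 against 8.14) were just outside. Of the 8 receptors on control 1 and MBELN 3 alone, 4 had such a value: Pparg, Nr3c1, Thrb and Rxra. Nr3c1 was 7.87 against 7.93 on MBELN 1, and inside by 0.2 on MBELN 3. Thrb was just outside on both MBELN 2 (9.22 against 9.34) and control 3 (8.75 against 8.89). Rxra was inside by 0.16 on control 1.

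**Figure D2:**
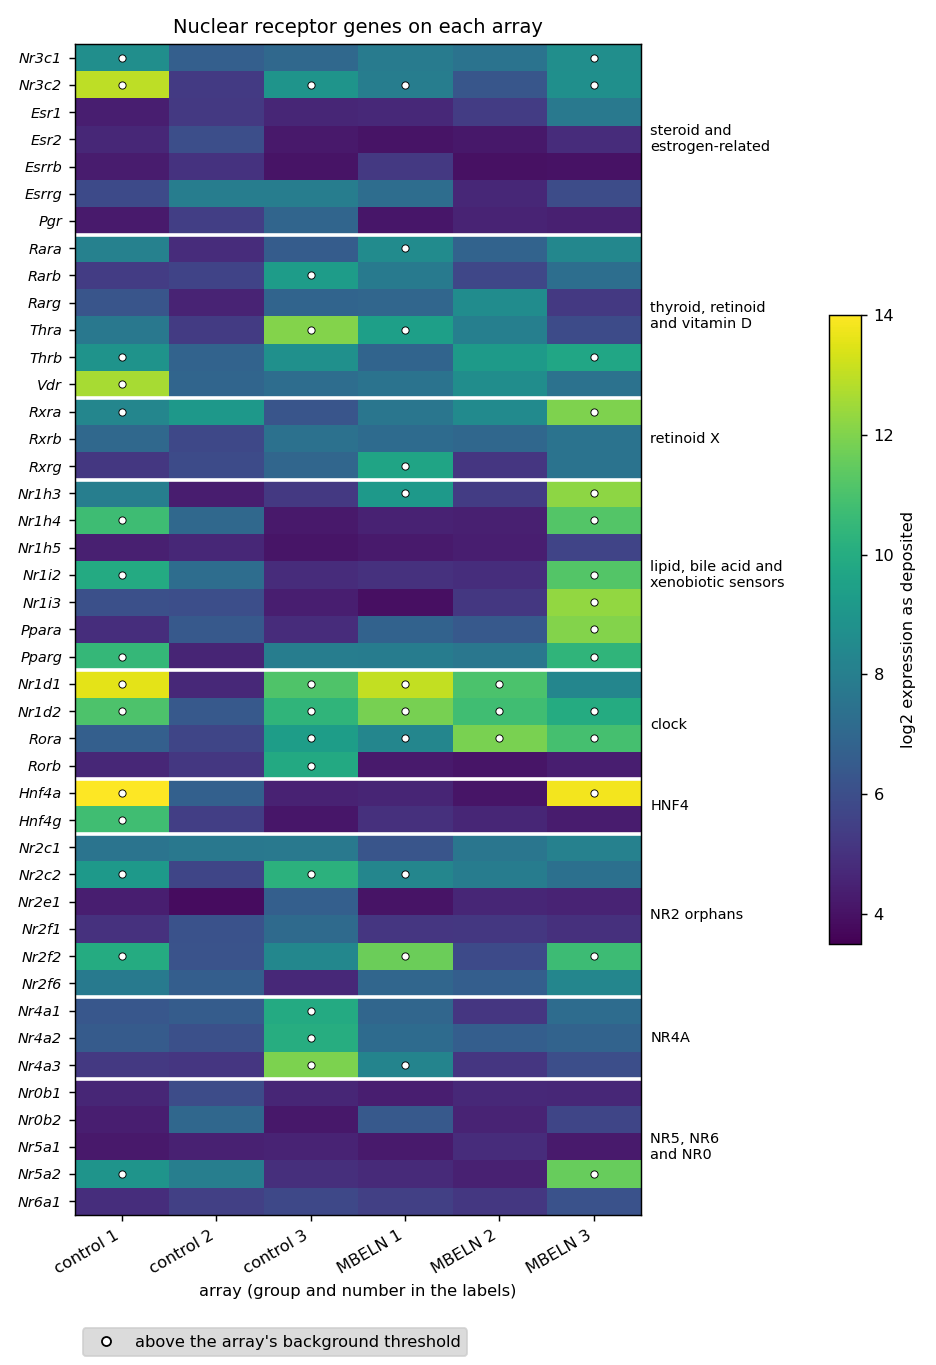
Log2 expression of the 43 nuclear receptor genes (rows, grouped by kind) on the 6 arrays (columns), with a white dot where a gene was above that array's background threshold. Dots gather in the columns of control 1 and MBELN 3, and the column of control 2 has 0.

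HNF4 receptors bind DNA as homodimers and drive epithelial and hepatocyte genes. Hnf4a was 13.97, 6.71 and 4.50 on control 1 to 3 and 4.59, 4.08 and 13.83 on MBELN 1 to 3. It was high on 1 array of each group and below background on the other 4, so that the groups overlapped. Hnf4g, its relative of the gut epithelium, was 10.78, 5.46 and 4.15 on control 1 to 3 and 4.95, 4.62 and 4.31 on MBELN 1 to 3. Hnf4g was above background on control 1 alone, and the array with liver markers had Hnf4a without it.

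Receptors of bile acids and xenobiotics had their highest values on MBELN 3. Nr1h4 (FXR), the bile acid receptor, was 10.74, 7.04 and 4.22 on control 1 to 3 and 4.50, 4.41 and 11.20 on MBELN 1 to 3. Nr1i2 (PXR), a xenobiotic sensor, was 9.90, 7.27 and 4.83 on control arrays and 4.99, 4.87 and 11.18 on MBELN arrays. Both were above background on control 1 and MBELN 3 alone. Nr1i3 (CAR), a related xenobiotic sensor, was 6.06, 6.02 and 4.39 on control arrays and 3.95, 5.20 and 12.28 on MBELN arrays, and was above background on MBELN 3 alone, with a gap of 6.22 log2 units to the next array. Nr5a2 (LRH-1), an orphan receptor of liver, pancreas and gut, was 8.94, 8.01 and 4.93 against 4.76, 4.45 and 11.57. Nr0b2 (SHP), an atypical member without a DNA-binding domain that FXR induces and that represses bile acid synthesis, was above background on no array: it was 4.39, 7.00 and 4.18 on control arrays and 6.44, 4.53 and 5.70 on MBELN arrays. Nr1h5, the second farnesoid X receptor gene of mice, was also above background on no array and was 5.65 on MBELN 3, its highest.

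Because Nr1h4, Nr1i2, Nr5a2 and Hnf4a were above background on the same arrays, the 250 bases before each annotated start were searched for AGGTCA, the hexamer that many nuclear receptors bind, on both strands (RefSeq sequences, GRCm38.p6). The genes shown were chosen after their values were seen. Of all 32851 promoter windows of this length, 14% held the hexamer, and 11 of 64 windows of the family did (17.2%; 43 of the 47 genes matched the table). Nr1h4 and the first window of Nr5a2 each held 1 match, on the minus strand 214 bases and on the plus strand 64 bases before the start. These letters were not in the windows of Nr1i2 and Hnf4a or in the second window of Nr5a2. The 2 windows with a match are at chr10:89506659-89506908 (Nr1h4, minus strand) and chr1:136960449-136960698 (Nr5a2, minus strand), with the hexamer in capitals. A match describes the letters and shows no binding.
Nr1h4: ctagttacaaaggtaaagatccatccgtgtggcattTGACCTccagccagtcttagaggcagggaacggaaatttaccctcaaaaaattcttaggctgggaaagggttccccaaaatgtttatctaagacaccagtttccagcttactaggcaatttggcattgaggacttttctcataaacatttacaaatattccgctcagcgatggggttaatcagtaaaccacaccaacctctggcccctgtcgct
Nr5a2: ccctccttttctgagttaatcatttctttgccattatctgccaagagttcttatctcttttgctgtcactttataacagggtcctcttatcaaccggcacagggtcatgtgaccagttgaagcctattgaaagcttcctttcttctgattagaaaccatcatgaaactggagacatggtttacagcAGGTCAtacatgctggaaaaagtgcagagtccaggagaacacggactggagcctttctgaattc

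Genes that act with these receptors differed between the arrays that carried them. Of 13 measured genes of the FXR and bile acid list, 8 were above background on MBELN 3 and 2 on control 1. Slc10a1, the bile acid uptake transporter of hepatocytes, was at 16.77 on MBELN 3 and at most 6.75 elsewhere. Cyp7a1, the rate-limiting enzyme of bile acid synthesis, was at 15.98 on MBELN 3, with the next array at 8.49. Abcb11, the bile salt export pump, was at 11.61 and at most 5.37 elsewhere, and Abcb4, a phospholipid exporter of bile, at 11.19 and at most 5.50. By limma, 0 of these 13 genes passed the adjusted test and 0 had an unadjusted p under 0.05.

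The PXR and CAR targets were above background mostly on the same arrays. Of 11 measured genes, 6 were above background on control 1, 7 on MBELN 3 and at most 2 on any other array. The genes named first were chosen by their gap to the next array, so their leading array follows from that choice. Cyp3a11, the main drug-metabolising P450 of mouse liver, was at 18.41 on MBELN 3 and at most 8.44 elsewhere. The exporter gene Abcc2 was at 16.48 on MBELN 3 and at most 6.04 elsewhere, and Cyp3a25 at 14.91 and at most 6.60. Abcb1a, a drug efflux pump, had its highest value on control 1 (16.75, next array 9.91). Other genes of the list were shared or led elsewhere. Cyp3a13 was above background on both control 1 (15.32) and MBELN 3 (14.72), as was Abcc3 (11.84 and 14.18), and Alas1 on 5 arrays. Cyp2b10 was above background on MBELN 2 alone (11.58) and was 8.14 on MBELN 3. By the adjusted test 0 of 11 passed, and 0 had an unadjusted p under 0.05. The 11 measured HNF4A-linked gut and liver genes had a median of 13.01 on MBELN 3, 7.56 on control 1 and 4.91 to 6.29 elsewhere, and 0 passed or had an unadjusted p under 0.05. Their leading genes were apolipoproteins on MBELN 3 (Apoc3 at 19.93, Apoa1 at 19.58) and the trefoil factor Tff3 on control 1 (18.95).

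Among receptors of fatty acids and oxysterols, Ppara and Nr1h3 were highest on MBELN 3. Ppara, which drives fatty acid oxidation, was 4.86, 6.42 and 4.82 on control arrays and 6.79, 6.45 and 12.04 on MBELN arrays. It was above background on MBELN 3 alone. All 3 MBELN values lay above all 3 control values, although the lowest MBELN value (6.45) exceeded the flat control 2 (6.42) by little and neither was above background. Pparg, the receptor of adipocytes that colonocytes also express, was 10.48, 4.60 and 7.96 against 7.90, 7.66 and 10.38, so its groups overlapped. Nr1h3 (LXR alpha), a receptor of oxysterols, was 8.01, 4.34 and 5.26 on control arrays and 9.14, 5.37 and 12.20 on MBELN arrays, above background on MBELN 1 and MBELN 3.

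Among 18 measured PPAR targets, 9, 8 and 12 were above background on MBELN 1 to 3, and 6, 0 and 1 on control 1 to 3. All 18 had a higher mean on MBELN arrays, with a median difference of 3.38, beside a median of -0.01 over all probe sets. Some other lists did the same: 9 of 9 ribosomal protein genes had a higher mean on MBELN arrays (median 3.72). So did 10 of 10 heart, 10 of 10 squamous skin and 10 of 10 liver markers (4.20, 4.32 and 3.87). Marker lists of other tissues went the other way. A higher mean on MBELN arrays was found for 0 of 15 colonocyte and goblet cell markers (median -3.34). It was found for 0 of 9 brain (-3.98) and 3 of 8 smooth muscle markers (-1.02). Without the flat control 2, the counts were 18 of 18 PPAR targets (median 2.90) and 8 of 9 ribosomal protein genes (0.78). Without MBELN 3, 13 of 18 PPAR targets had a higher mean on MBELN arrays (2.69). By limma 0 passed the adjusted test and 3 had an unadjusted p under 0.05: Angptl4, Cd36 and Acadm. That count was 1 without control 2, control 3 or MBELN 1, 6 without control 1 and 7 without MBELN 3. Over all probe sets the share was 1.9% with all 6 arrays, and is not given here with an array left out. The counts are therefore not read as particular to PPAR targets. Without control 1, 4 of 9 ribosomal protein genes also had an unadjusted p under 0.05. Angptl4, an inhibitor of lipoprotein lipase, was 7.66, 5.03 and 6.14 on control arrays and 8.54, 9.85 and 10.31 on MBELN arrays, and was above background on MBELN arrays alone. Cd36, a fatty acid transporter, was 9.72, 5.08 and 4.30 against 16.32, 9.91 and 12.99, and Acadm, an enzyme of fatty acid oxidation, 8.83, 5.01 and 6.73 against 13.22, 8.10 and 12.32. The genes with the largest gaps split by array. Fabp1, the liver fatty acid binding protein, was at 16.99 on MBELN 3 and at most 7.05 elsewhere, and the fatty acid hydroxylase Cyp4a14 at 15.36 and at most 6.97. Fabp3, the muscle form, was at 19.38 on MBELN 1, the array with heart markers, with the next array at 10.68. The 10 measured LXR targets had medians of 10.02, 6.34 and 8.11 on control 1 to 3 and 10.65, 9.85 and 11.97 on MBELN 1 to 3. Of these, 0 passed and 1 had an unadjusted p under 0.05, the cholesterol exporter gene Abca1. Its values were 8.14, 6.30 and 8.02 on control arrays and 9.71, 9.59 and 12.24 on MBELN arrays, above background on the latter alone, although control 1 was at its threshold to the digits given. Without control 2 it no longer had an unadjusted p under 0.05. Lpl, the lipase that releases fatty acids from lipoproteins, led on MBELN 1 (18.18, next 10.11). The sterol exporters Abcg5 and Abcg8 were above background on control 1 and MBELN 3 alone, at 10.63 and 12.90 for Abcg5 and at 8.75 and 11.71 for Abcg8.

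**Figure D3:**
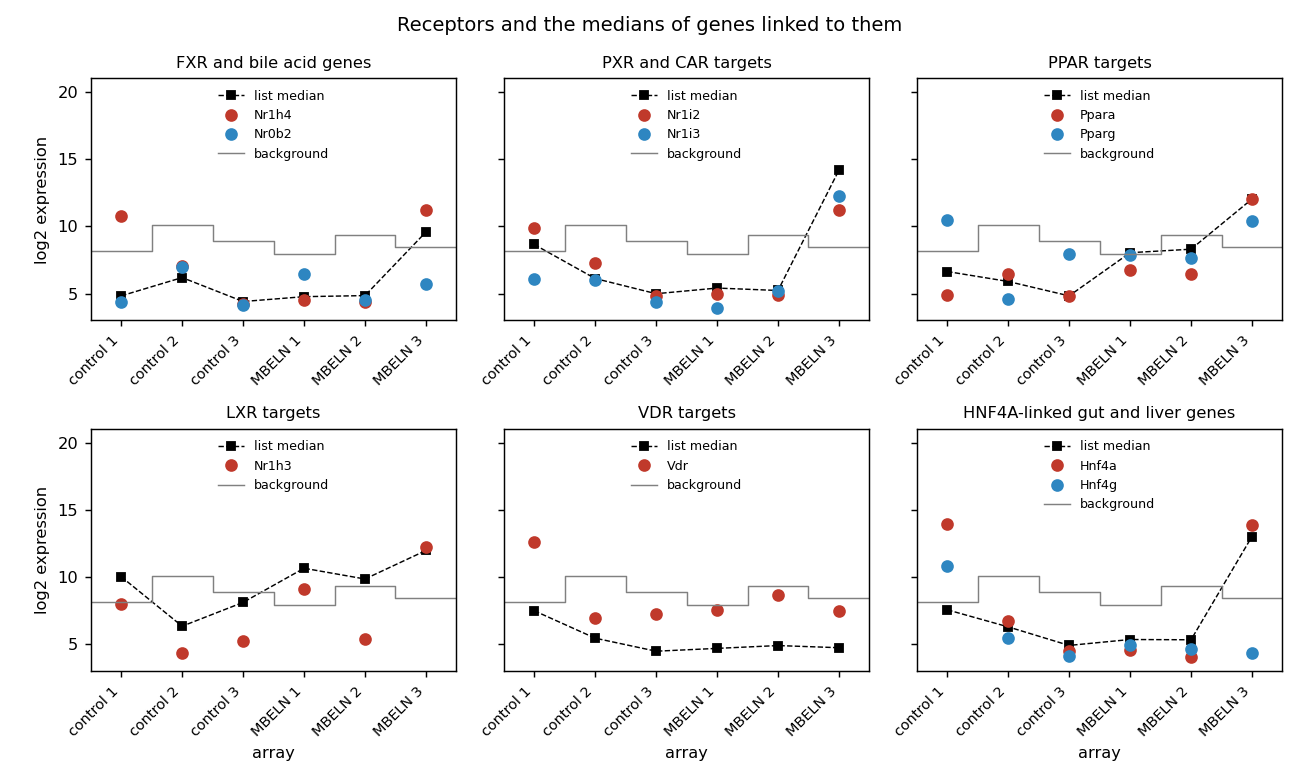
Log2 expression of receptors (coloured points) and the median of the genes linked to them (black squares, joined by dashed lines only to guide the eye) on the 6 arrays, with each array's background threshold as a grey line. Values should be compared between arrays for 1 gene or list: on MBELN 3 the list medians rise to 9.58 for FXR and bile acid genes and to 14.18 for PXR and CAR targets, while Nr0b2 stays below the threshold on every array.

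Retinoid X receptors are the common partners of several of the receptors above. Rxra was 8.30, 9.09 and 6.25 on control arrays and 7.62, 8.54 and 11.96 on MBELN arrays. It was above background on control 1 and MBELN 3 alone, since 9.09 and 8.54 lay under the thresholds of control 2 and MBELN 2. Rxrg, the form of muscle and brain, was 5.21, 5.89 and 6.97 against 9.62, 5.16 and 7.50, above background on MBELN 1 alone. Rxrb was above background on no array and ranged from 5.79 to 7.50.

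The receptors of vitamin D, thyroid hormone and retinoic acid were highest on different arrays. Vdr, the vitamin D receptor, was 12.62, 6.93 and 7.24 on control arrays and 7.51, 8.63 and 7.47 on MBELN arrays, above background on control 1 alone with a gap of 3.99 log2 units. Thra, the main thyroid hormone receptor of brain and heart, was 7.70, 5.33 and 12.07 against 9.41, 8.04 and 5.89. It was above background on control 3 and MBELN 1, the arrays with brain and heart markers. Thrb, the main thyroid hormone receptor of liver, was 8.88, 6.83 and 8.75 against 6.87, 9.22 and 9.71, above background on control 1 and MBELN 3. The retinoic acid receptors were also highest on different arrays. Rara was 8.10, 4.85 and 6.55 against 8.58, 6.86 and 8.35, above background on MBELN 1 alone, with control 1 just outside, as given above. Rarb was 5.38, 5.61 and 9.29 against 7.78, 5.73 and 7.31, above background on control 3 alone. Rarg, the receptor of epidermis, was above background on no array and had its highest value, 8.59, on MBELN 2, the array with squamous skin markers.

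Most genes named around these receptors were chosen by the gap between their highest and next array. A leading array therefore follows from that choice, and Klf9 of the thyroid list was above background on 5 arrays. Of 9 measured VDR targets, 4 were above background on control 1 and at most 1 on any other array. S100g, the intestinal calcium-binding protein, was at 12.76 on control 1 and at most 4.90 elsewhere, and the phosphate transporter Slc34a2 at 12.23 and at most 6.03. Atp2b1 was higher on control 3 (13.16) than on control 1 (11.32), and Cyp24a1 and Trpv6 were above background on no array. Of 10 measured thyroid hormone receptor targets, 5 each were above background on control 3, MBELN 1 and MBELN 3. Myh6, a cardiac myosin, led on MBELN 1 (19.32), Mbp, a myelin protein, and Nrgn, a neuronal calmodulin-binding protein, on control 3 (18.46 and 14.86), and Thrsp, a lipogenic gene of the liver, on MBELN 3 (17.32). By limma 0 genes of these lists passed, and 1 had an unadjusted p under 0.05, Me1 of the thyroid list. Me1, a lipogenic enzyme, was 7.47, 5.59 and 8.90 on control arrays and 11.52, 14.94 and 13.87 on MBELN arrays, so its groups did not overlap. The retinoid supply list had 5 of 17 measured genes above background on MBELN 3 and 2 each on control 1, MBELN 1 and MBELN 2. The plasma retinol carrier Rbp4 was at 19.93 on MBELN 3 (next 7.95), the retinaldehyde dehydrogenase Aldh1a1 at 17.92 (next 10.98), and Crabp2, which delivers retinoic acid to its receptors, at 11.86 on MBELN 2 (next 6.29). Of the 17, 0 passed and 1 had an unadjusted p under 0.05. This was Dhrs3, a retinal reductase that is also among the 8 measured RAR targets, of which 0 passed. Dhrs3 was 7.69, 5.88 and 6.58 on control arrays and 11.31, 9.37 and 11.35 on MBELN arrays, above background on MBELN arrays alone.

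Steroid receptors were above background in few places. Nr3c2, the mineralocorticoid receptor, was 12.94, 5.29 and 8.93 on control arrays and 7.96, 6.32 and 8.73 on MBELN arrays. It was highest on control 1, by 4.01 log2 units, and within 0.26 of the threshold on the other 3 arrays where it exceeded it. Nr3c1, the glucocorticoid receptor, was 8.68, 6.67 and 7.04 against 7.87, 7.49 and 8.67, above background on control 1 and MBELN 3. Esr1, Esr2, Pgr, Esrrb and Esrrg were above background on no array. Of these, Esr1 had its highest value (7.73) on MBELN 3 and Pgr (6.93) on control 3, while the highest Esrrg values were 7.96 on control 2 and 7.95 on control 3.

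Of 16 measured glucocorticoid and mineralocorticoid receptor targets, 15, 0 and 10 were above background on control 1 to 3, and 10, 7 and 14 on MBELN 1 to 3. The gluconeogenic enzyme Pck1 was at 19.11 on MBELN 3 (next 9.23, on control 1) and Tat, a tyrosine aminotransferase, at 19.06 (next 10.05, on control 1). Errfi1, an inhibitor of epidermal growth factor receptor signalling, was at 18.29 on MBELN 3 (next 11.63, on control 1). Scnn1a, a subunit of the aldosterone-regulated sodium channel, led on control 1 (13.35, next 8.84). Of the enzymes that make or remove ligands, Akr1c6 (16.01, next 5.72) and the steroid hydroxylase Cyp17a1 (15.29, next 6.62) led on MBELN 3. Hsd11b2, which inactivates glucocorticoids in mineralocorticoid target cells, was at 11.09 on control 1 and at most 4.98 elsewhere. Hsd11b1, which regenerates them, was at 17.23 on MBELN 3, with the next value, 10.61, on the flat control 2. By limma 0 of the 16 targets and 0 of the 16 measured ligand enzymes passed, and 0 of either had an unadjusted p under 0.05. Of 13 measured ERR targets, mostly of energy metabolism, 12 were above background on MBELN 1, and 0 passed (Acadm, given above with the PPAR targets, had an unadjusted p under 0.05). Creatine kinase Ckmt2 was at 15.39 on MBELN 1 and at most 6.54 elsewhere.

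Of the 4 receptors of the circadian clock, 3 were above background on 4 or 5 arrays. Nr1d1 and Nr1d2, the REV-ERB repressors, hold down Bmal1 transcription, which ROR receptors activate from the same elements. Nr1d1 was 13.57, 4.73 and 11.10 on control arrays and 13.03, 11.04 and 8.32 on MBELN arrays. Nr1d2 was 11.06, 6.44 and 10.35 against 11.86, 10.78 and 9.97. Apart from the flat control 2, both had their lowest value on MBELN 3, where Nr1d1 lay under the threshold. Rora was 6.68, 5.69 and 9.33 on control arrays and 8.33, 11.88 and 10.89 on MBELN arrays, above background on all 3 MBELN arrays and on control 3. Its other 2 probe sets differed: 1 had a difference of 2.63 and the other, above background on no array, of -0.04. Rorb, the form of neural tissue, was 4.66, 5.20 and 9.86 against 4.24, 4.10 and 4.40, above background on control 3 alone. Its second probe set was also highest on control 3, at 7.93, which lay under the threshold.

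Other genes of the clock loop were read from 15 measured members. Arntl (Bmal1), the activator that REV-ERB represses, was 8.68, 6.00 and 9.11 on control arrays and 6.22, 7.19 and 5.77 on MBELN arrays. It was above background on control 1 and control 3 and was lowest on MBELN 3. Dbp, an output gene of the loop, was 16.72, 5.23 and 16.27 against 16.68, 15.17 and 15.43, so that the arrays other than control 2 lay between 15.17 and 16.72. Per2, a repressor of the loop, was above background on MBELN 3 alone (9.48, next 7.91), as was Ciart (10.01, next 8.67), while Cry2 led on control 3 (11.75, next 9.56), Npas2 on control 3 (9.71, next 7.94) and Per3 on MBELN 2 (9.94, next 8.26). By limma 0 of 15 passed, and 0 had an unadjusted p under 0.05.

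The NR4A receptors are orphan receptors induced within minutes to hours by growth factors, cyclic AMP and neuronal activity. Nr4a1 was 6.37, 6.54 and 9.91 on control arrays and 6.98, 5.16 and 7.21 on MBELN arrays. Nr4a2 was 6.50, 6.07 and 10.05 against 7.17, 6.63 and 6.86, and Nr4a3 was 5.23, 5.17 and 11.93 against 8.24, 5.18 and 6.01. All 3 were highest on control 3, the array with brain markers, by 2.70, 2.88 and 3.69 log2 units. Nr4a3 was also above background on MBELN 1.

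The 3 NR4A promoters are shown because the 3 genes led on the same array, and the choice was again made with the values known. The 250 bases before each start (RefSeq, GRCm38.p6) were searched on both strands for TGACG, the core of the cyclic AMP response element. Each of the 3 windows held 4 matches, in capitals below (CGTCA where the match is on the minus strand). At least 1 match was found in 17.8% of all 32851 windows and in 13 of the family's 64 (20.3%), and at least 4 in 45 windows (0.137%). The cutoff of 4 is the number that the 3 chosen windows held, so that share is a description and no test. A match describes the letters and shows no binding, and a role of cyclic AMP in these values was not tested. The windows are chr15:101266596-101266845 (Nr4a1, plus strand), chr2:57124004-57124253 (Nr4a2, minus strand) and chr4:48045055-48045304 (Nr4a3, plus strand).
Nr4a1: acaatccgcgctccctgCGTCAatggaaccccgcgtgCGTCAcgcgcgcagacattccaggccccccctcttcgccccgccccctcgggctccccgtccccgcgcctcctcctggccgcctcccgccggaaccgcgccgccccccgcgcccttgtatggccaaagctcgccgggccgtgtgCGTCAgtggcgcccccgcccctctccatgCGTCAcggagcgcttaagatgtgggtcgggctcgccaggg
Nr4a2: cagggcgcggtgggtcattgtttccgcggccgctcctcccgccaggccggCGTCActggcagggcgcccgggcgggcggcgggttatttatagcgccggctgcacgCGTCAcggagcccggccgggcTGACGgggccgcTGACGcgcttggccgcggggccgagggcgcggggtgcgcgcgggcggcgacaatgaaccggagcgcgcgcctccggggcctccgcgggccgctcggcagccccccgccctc
Nr4a3: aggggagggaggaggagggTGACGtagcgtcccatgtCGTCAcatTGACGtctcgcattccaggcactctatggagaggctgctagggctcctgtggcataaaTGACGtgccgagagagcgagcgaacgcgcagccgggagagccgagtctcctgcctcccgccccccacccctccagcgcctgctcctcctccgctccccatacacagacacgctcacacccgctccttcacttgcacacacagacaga

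Not every immediate early gene shared that array. Among 13 measured, Arc (9.12, next 4.67) and Npas4 (8.97, next 4.92), both induced by activity in neurons, were above background on control 3 alone, as was Egr3 (9.30, next 7.11). Egr1 was also highest on control 3 (16.09) but was above background on 5 arrays. Btg2 led on control 1 (11.10, next 8.55), as did Fos (9.91), and the highest Atf3 value, 10.40, was on the flat control 2. The list's medians were 8.93, 5.74 and 8.51 on control 1 to 3 and 8.07, 8.55 and 6.74 on MBELN 1 to 3. By limma 0 of 13 passed, and 0 had an unadjusted p under 0.05.

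**Figure D4:**
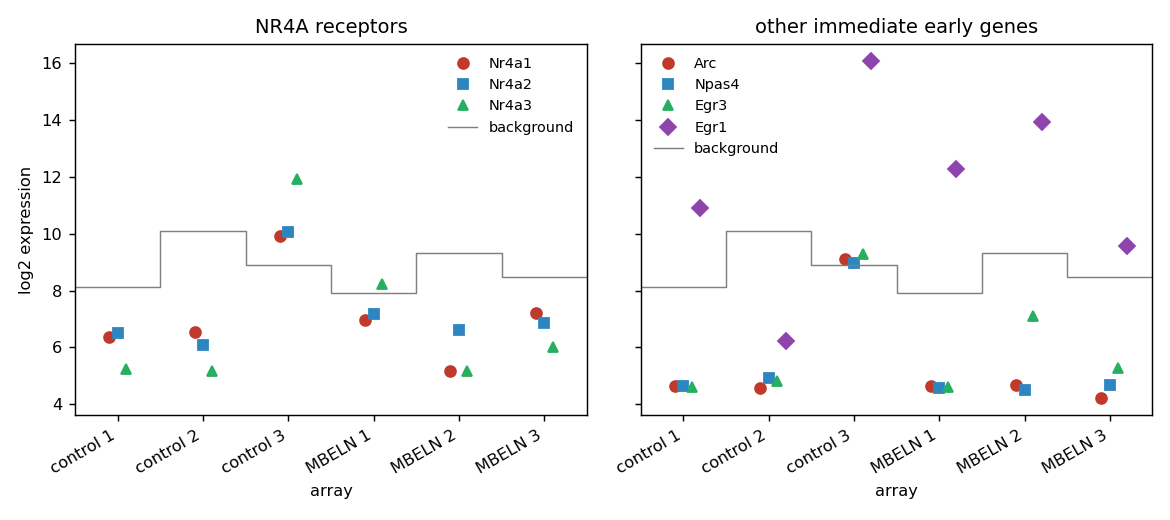
Log2 expression of the 3 NR4A receptors (left) and of 4 other immediate early genes (right) on the 6 arrays, with each array's background threshold as a grey line; points are offset sideways for legibility. Nr4a1, Nr4a2, Nr4a3, Arc, Npas4 and Egr3 each have their highest value on control 3.

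Of the 6 measured orphan receptors of the NR2 group, 2 were above background somewhere. Nr2f2 (COUP-TFII), a receptor of veins, mesenchyme and atria, was 9.94, 6.17 and 8.35 on control arrays and 11.64, 5.87 and 10.68 on MBELN arrays, and was highest on MBELN 1, the array with heart markers. Nr2c2 was 9.19, 5.68 and 10.25 against 8.30, 7.90 and 7.36, above background on control 1, control 3 and MBELN 1. Nr2c1, Nr2e1, Nr2f1 and Nr2f6 were above background on no array. Nr2e1 (TLX), a receptor of neural stem cells, and Nr2f1 had their highest values, under the threshold, on control 3, at 6.68 and 7.13. With Rarg, Rxrb, the 5 steroid and estrogen-related receptors, Nr0b1, Nr0b2, Nr1h5, Nr5a1 and Nr6a1, 16 receptors were above background nowhere, and their values ranged from 3.84 to 8.59. Nr5a1, the receptor of adrenal and gonadal steroid synthesis, ranged from 4.20 to 4.84.

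Receptors act through coactivators and corepressors, of which 18 of 20 measured were above background somewhere. Control 1 and MBELN 1 had 18 each, control 3 had 16, MBELN 3 had 15, MBELN 2 had 10 and control 2 had 1, the corepressor subunit Hdac3. Ppargc1a, the coactivator of mitochondrial genes, was 13.59, 4.68 and 13.84 on control arrays and 12.99, 5.26 and 11.81 on MBELN arrays, so that it was below background on MBELN 2 and on the flat control 2. Tbl1xr1 (11.80) and Nrip1 (11.44) led on control 1, and Ncoa1 (11.00) on control 3. By limma 0 of 20 passed, and 0 had an unadjusted p under 0.05.

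The comparison of MBELN with control sets the arrays with these labels against each other. It cannot tell apart the treatment from the tissue genes each array carried. By limma's test, fitted on all 22206 probe sets that are not controls and adjusted by Benjamini-Hochberg over all of them, 0 of 43 receptors passed, as did 0% of all probe sets. At an unadjusted p under 0.05 the count was 0 of 43, beside 1.9% of all probe sets (1.37% higher and 0.531% lower on MBELN arrays). The smallest p among the receptors was 0.0553 (Rora, adjusted p = 0.936). The differences ran from -2.33 to 3.13 log2 units, with 22 above 0 and 21 below. Their median was 0.05, beside -0.01 over all probe sets, and it ran from -0.24 (array weights) to 0.30 (without the dimmest probe sets) under other settings and from -0.10 to 0.56 when 1 array was left out.

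Rora had the largest difference, with means of 7.24 ± 1.88 in control and 10.37 ± 1.84 in MBELN (SD, n = 3 each). The log2 difference was 3.13 (SE 1.31), and the groups overlapped, since control 3 lay above MBELN 1. The means of Ppara were 5.37 ± 0.91 in control and 8.43 ± 3.14 in MBELN (n = 3 each). They differed by 3.06 (SE 1.60), and by 1.25 without MBELN 3. Nr1h3 differed by 3.03 (SE 1.90), and by 1.39 without MBELN 3. In the other direction, Rorb differed by -2.33 (SE 1.42), and by -0.68 without control 3. Hnf4g differed by -2.17 (SE 1.72), and by -0.18 without control 1. Each had an adjusted p of 0.936. Ppara, Nr1h3, Rorb and Hnf4g were each below background on all arrays of 1 group, and their fitted differences measure no fold.

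The groups did not overlap for 2 of 43 receptors (4.65%), Ppara with MBELN higher and Rorb with MBELN lower, beside 6.83% of all probe sets (3.58% higher, 3.26% lower). With 1 array left out, the count was 10 of 43 without control 1, 6 without control 2, control 3, MBELN 1 or MBELN 2, and 5 without MBELN 3. The shares of all probe sets were then 21.6%, 18.3% and 16.6% without control 1, 2 and 3 in turn, and 13.3%, 17.3% and 12.8% without MBELN 1, 2 and 3. Outside the family, 183 genes of the 15 pathway lists were tested. Of these 0 passed, and 6 (3.28%) had an unadjusted p under 0.05, all higher on MBELN arrays, beside 1.9% of all probe sets. The groups did not overlap for 11 (6.01%). With 1 array left out, 6 to 14 had an unadjusted p under 0.05, with 6 without MBELN 1 and 14 without control 1. The share of all probe sets at that p is not given here with an array left out. These counts are therefore not read as particular to the pathway genes.

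**Figure D5:**
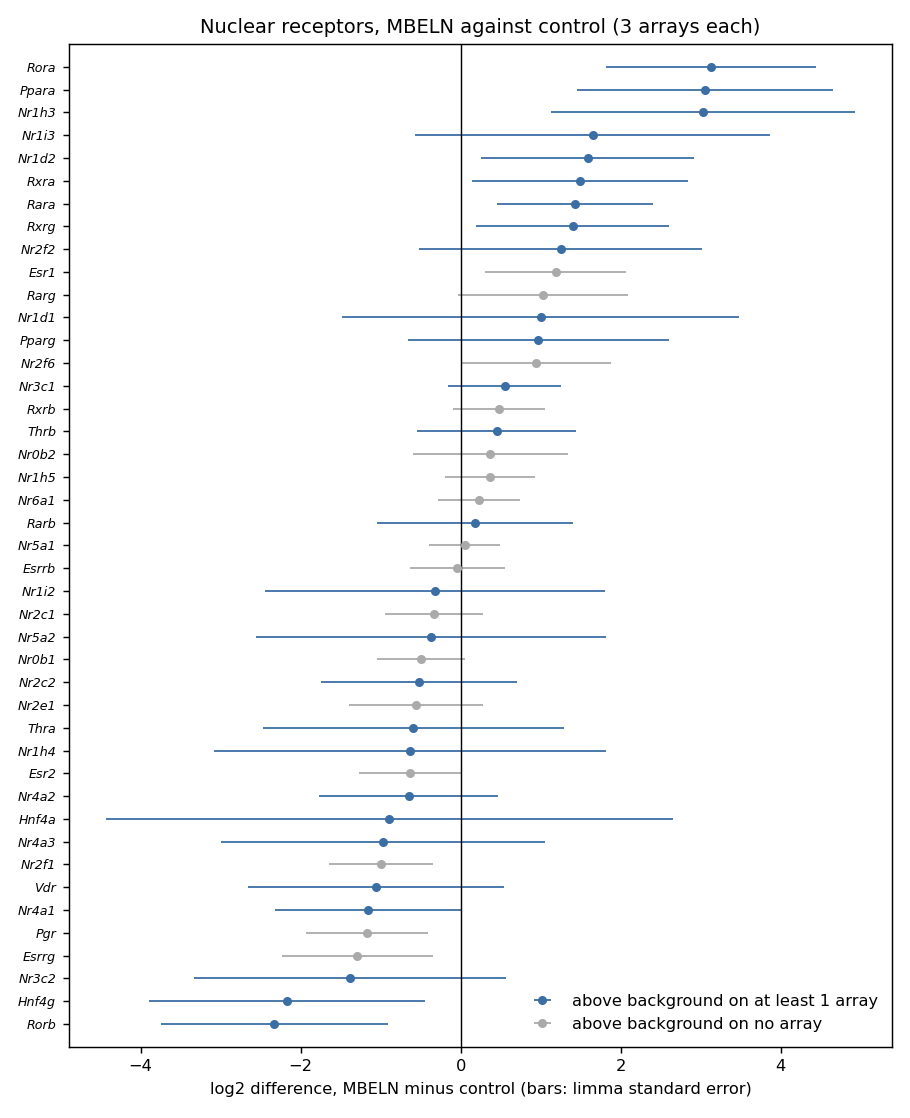
Log2 difference between 3 MBELN and 3 control arrays for each of the 43 nuclear receptors, sorted, with the limma standard error as a bar; blue genes were above background on at least 1 array and grey genes on none. The points run from -2.33 (Rorb) to 3.13 (Rora) on both sides of 0, and none passed the adjusted test.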

How the data were processed

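Log2 expression values of 28846 probe sets on 6 arrays were used as deposited. The scale was read from the values, which run from 3.38 to 19.93. Per the submitters' processing notes, Transcriptome Analysis Console 4.0 was used. How probes were summarised and arrays normalised is not stated in the labels or headers used here. All 6 value columns were mapped by sample.

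Tests ran on 22206 probe sets, without the 6640 controls. Symbols came from the platform annotation (19572 probe sets, 19505 genes). Negative controls (5222 probe sets) set the background threshold. Groups were compared with limma 3.58.1 (lmFit, eBayes) in R 4.3.3, 2-sided, with a threshold of 0.05. The fit was also run on simulated data of 22206 probe sets, with 50 changed at each size. Noise was independent and normal, with each probe set's SD within the groups of these arrays. The fit recovered 0% of changes of 1 or 2 log2 units, 16% of changes of 4 and 60% of changes of 8, with 1 false call. With the same 3 arrays a group and an SD of 0.3 it recovered 74% of changes of 1 and 100% of larger ones, with 11 false calls. Such noise holds no flat array and no array with genes of another tissue. These shares therefore do not measure what the fit can recover from the real arrays. Python 3.11.15, numpy 2.4.6, pandas 2.3.3 and matplotlib 3.10.9 were used for summaries, motif searches and plots.

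The members, gene lists and tests were chosen with earlier results of these data known. Values are given for all members above background somewhere. From each list up to 4 genes are named, first by the gap between the highest and the next array among those above background, then by unadjusted p. Other genes named (Arntl, Dbp, Ppargc1a, Egr1, Egr3, Fos, Ciart, Abcg5, Acadm, Angptl4, Cd36, Me1 and Dhrs3) were chosen after their values were seen. So were Cyp3a13, Abcc3, Alas1, Cyp2b10, Cyp24a1 and Trpv6. Alternatives were 2 filters on dim probe sets, array weights, quantile normalisation, a robust prior with an intensity trend, the replicate block, equal medians, probe sets averaged per gene, thresholds at the 90th and 99th percentile, and leaving out each array.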

Additional observations from a re-analysis of the deposited data

How the results depend on the processing

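Under every alternative run, 0 receptors and 0 pathway genes passed limma's adjusted test. At an unadjusted p under 0.05 the receptor count was at most 2, reached without control 1 and without MBELN 2. The replicate block, fitted because both groups carry the numbers 1 to 3, also gave 0 receptors, and a difference of 3.13 for Rora (adjusted p = 0.919). Deviations of same-numbered arrays correlated at 0.113, 0.119 and -0.051, and those of differently numbered arrays at -0.181 to 0.096. These values cannot decide whether the numbers pair the arrays, since the arrays carried genes of different tissues. With probe sets averaged per gene, the groups did not overlap for 1 receptor, and the differences of Rora and Rorb were 1.90 and -1.74. With 1 array left out, this count ran from 5 to 10, since fewer arrays overlap less often. The difference in the number above background ran from -3.33 to 4.33 with 1 array left out. None of the differences of Rora, Ppara, Rorb, Nr1h3, Hnf4g, Angptl4, Cd36, Acadm, Abca1, Me1 and Dhrs3 changed sign under an alternative run, and Me1 ranged from 5.26 to 7.09. The pathway genes among these were named for a small unadjusted p on the same arrays, so a p kept under an alternative is no independent support. The adjusted limma p of Angptl4, Me1 and Dhrs3 stayed at 0.737 or more. An unadjusted p under 0.05 was kept by these 3 genes under each alternative. Cd36 lost it without control 2, control 3 or MBELN 1, and Acadm without control 2, control 3, MBELN 1 or MBELN 3. Abca1 did not keep an unadjusted p under 0.05 without control 2 or with the filter at background. With the replicate block, 12 of 183 pathway genes had such a p, against 6 without it, and 10 with array weights. The shares of all probe sets at such a p under these alternatives are not given here, for receptors or pathway genes to be set beside. The counts for PPAR targets, ribosomal protein genes and pathway genes by setting were added after seeing the data. Equal medians moved the median of all probe sets by 0.12 log2 units. Of the 27 receptors, 25 kept their highest array under quantile normalisation. At the 99th percentile 8 receptors were above background somewhere (4 on control 1, 3 each on both MBELN 1 and MBELN 3, and 0 on the others) and 1 on control 1 and MBELN 3 alone, and at the 90th percentile 33 and 6.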
